A study of Mus musculus with 10 samples.

Results

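The genes described here are 35 genes of glycolysis and the hypoxia response, of 31053 genes listed in each single-cell RNA matrix. They were chosen by name and comprise 16 glycolytic enzymes, 4 transporters of glucose or lactate, 2 regulators of phosphofructokinase, the gene of the oxygen-sensitive HIF subunit Hif1a and 12 HIF targets outside the pathway. All 35 were found by symbol. Aldoa was listed under a pair of gene IDs, of which the one with more UMIs was used. Together the genes took 0.72% of all UMIs.

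Splenic cells came from 5 mice of BXD2, a recombinant inbred strain that forms spontaneous germinal centers (GCs) and autoantibodies. The groups were 3 IL-23-deficient BXD2-p19-/- mice (p19-/- 1 and 2 female, p19-/- 3 male) and 2 female BXD2-WT mice, with 1 RNA library per mouse from the droplet 5' VDJ kit of 10x Genomics. The labels give no age, no treatment, no way in which the p19 mutation was made and no sort beyond naming B cells and T cells. The labels' title links IL-23 to the GC program of class switching, so each cell class was compared between p19-/- and WT mice.

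Glycolysis converts glucose to pyruvate, which lactate dehydrogenase reduces to lactate for export. HIF, a dimer of Hif1a or a related subunit with Arnt, is degraded in oxygenated cells after hydroxylation by Egln enzymes. In low oxygen it accumulates and binds a short core motif beside its targets, which include most glycolytic enzymes as well as genes of mitophagy, collagen hydroxylation and growth control. GC B cells alternate between a proliferative dark zone and a light zone where they are selected with help from T follicular helper (Tfh) cells, and parts of the light zone have been described as hypoxic.

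The 5 libraries held 11355 barcodes and 69958493 UMIs, with 7712457 to 18093053 UMIs per library, and 9200 cells remained after filtering, with 944 to 2729 per mouse. Library p19-/- 1 stood apart by its barcodes with over 10% mitochondrial UMIs, 36.01% against 9.17 to 13.2% in the others, and by holding 312 of the 506 cells of an unnamed B cell cluster that entered no comparison. Pairs of libraries shared 3 to 11 barcode sequences. Cell classes are called "-like" because they were rebuilt here by clustering without the 35 genes and named from marker genes. The classes were GC B-like (3019 cells), mature non-GC B-like (635), Tfh-like (2041), regulatory T or Treg-like (909) and myeloid-like cells (677, macrophages, monocytes and dendritic cells). Of the mature non-GC B-like cells, 39 formed a cluster with a median of 5.19 times the median UMIs of their library. These gave 59363 of 678926, 150164 of 625432 and 324567 of 1529251 UMIs of the class in p19-/- mice. In WT mice they gave 74912 of 951432 and 342761 of 1195639. Their part in the values of the class was not tested. The 8 GC B markers summed to 1441, 2131 and 1731 UMIs per 1000000 in GC B-like cells of p19-/- mice and to 1949 and 1967 in those of WT mice, against 208 to 320 in mature non-GC B-like cells. Of the 4 clusters of GC B-like cells, 3 were led by Myc and Cdc6, by histone genes and by Ccnb1, with no GC B marker among their leading genes. Il23a, which encodes p19, had 0 UMIs in every library, WT included, where a count of 0 allows up to 0.166 to 0.389 UMIs per 1000000 per library, and the p19-/- label has no check in these counts.

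Promoter sequences are shown for the 3 genes that passed the genotype test in some class (Gapdh, Eno1 and P4ha1) and for Ldha and Pgk1, textbook HIF targets that passed the genotype test in no class. Each is the 250 bases before the first start RefSeq lists (build GRCm38.p6), 5′ to 3′ on the gene's strand. Capitals mark the core of the HIF binding motif, ACGTG or GCGTG on either strand. The windows are chr6:125165774-125166023 on the minus strand for Gapdh, chr4:150236458-150236707 on the plus strand for Eno1, chr10:59323046-59323295 on the plus strand for P4ha1, chr7:46845554-46845803 on the plus strand for Ldha and chrX:106186850-106187099 on the plus strand for Pgk1. The start used lies inside the annotated span of the gene for Gapdh, P4ha1 and Ldha.
Gapdh: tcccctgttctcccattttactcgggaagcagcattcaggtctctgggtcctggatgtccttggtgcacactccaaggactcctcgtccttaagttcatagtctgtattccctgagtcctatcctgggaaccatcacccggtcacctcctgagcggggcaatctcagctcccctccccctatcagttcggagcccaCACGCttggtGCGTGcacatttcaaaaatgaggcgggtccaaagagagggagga
Eno1: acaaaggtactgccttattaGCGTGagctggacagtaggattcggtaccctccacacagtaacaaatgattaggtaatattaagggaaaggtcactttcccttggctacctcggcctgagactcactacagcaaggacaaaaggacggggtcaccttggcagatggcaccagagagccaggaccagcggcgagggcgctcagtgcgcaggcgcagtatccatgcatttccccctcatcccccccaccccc
P4ha1: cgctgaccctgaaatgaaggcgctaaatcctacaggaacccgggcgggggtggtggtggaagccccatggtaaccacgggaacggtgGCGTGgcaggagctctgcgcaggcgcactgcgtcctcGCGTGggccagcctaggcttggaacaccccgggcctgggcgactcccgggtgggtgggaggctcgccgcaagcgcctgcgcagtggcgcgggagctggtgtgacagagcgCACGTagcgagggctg
Ldha: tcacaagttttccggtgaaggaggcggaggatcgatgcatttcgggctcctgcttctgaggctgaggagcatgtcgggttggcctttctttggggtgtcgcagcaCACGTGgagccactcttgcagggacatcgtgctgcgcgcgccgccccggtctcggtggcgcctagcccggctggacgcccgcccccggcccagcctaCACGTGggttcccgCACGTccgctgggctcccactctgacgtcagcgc
Pgk1: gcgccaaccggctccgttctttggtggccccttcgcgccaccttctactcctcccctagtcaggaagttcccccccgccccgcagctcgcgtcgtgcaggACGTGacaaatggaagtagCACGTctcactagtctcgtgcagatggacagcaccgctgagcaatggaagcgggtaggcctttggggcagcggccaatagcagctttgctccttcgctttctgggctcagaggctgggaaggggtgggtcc
The Gapdh window held 2 GCGTG cores, that of Eno1 1, and that of P4ha1 1 ACGTG and 2 GCGTG cores. The Ldha window held 5 ACGTG cores, with each marked CACGTG counted once on either strand, and that of Pgk1 2. Windows were found for 32 of the 35 genes (all but Slc2a3, Bnip3l and Ndrg1), some with several starts, which gave 46 windows. Either core was present in 37 of the 46 (80.4%), against 38.6% of all 32851 windows, and the glycolytic enzymes (77.8% of 27 windows) and the HIF targets (75.0% of 12) differed little in this share. The ACGTG core was present in 33.3% of the enzyme and 58.3% of the HIF target windows, against 16.6% of all. For GCGTG the shares were 51.9%, 66.7% and 28.2%. The 46 windows also held a median of 14 CG dinucleotides (14 for the enzymes and 19 for the HIF targets), against 6 over all windows. Both core motifs contain CG. Each of the 5 windows shown held a core.

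The genes were used to very different extents by the cell classes. UMIs were summed per mouse and class and expressed per 1000000 of that sum (CPM); each molecule is tagged once at its 5' end, so levels of different genes needed no scaling by length. The 16 glycolytic enzymes summed to 5935 ± 815 CPM in GC B-like cells, 7294 ± 901 in Tfh-like, 7243 ± 1177 in Treg-like, 2960 ± 235 in myeloid-like and 3234 ± 638 CPM in mature non-GC B-like cells (mean ± SD over 5 mice). In every mouse GC B-like cells were higher than mature non-GC B-like cells, with ratios of 1.64 to 2.04, and lower than Tfh-like cells, with ratios of 0.749 to 0.925. The 12 HIF targets summed to 1513 ± 154 CPM in GC B-like, 2052 ± 249 in Tfh-like, 1931 ± 272 in Treg-like, 864.7 ± 196 in myeloid-like and 929.5 ± 136 CPM in mature non-GC B-like cells, but Mif, a secreted cytokine, alone gave 1098 CPM of the sum in GC B-like cells. The 11 targets other than Mif summed to 416 ± 74.6 CPM in GC B-like, 1095 ± 189.6 in Tfh-like, 944 ± 135.9 in Treg-like, 641 ± 178.8 in myeloid-like and 431 ± 73.7 CPM in mature non-GC B-like cells, so without Mif the B cell classes overlapped and both lay below the T cell classes. The Hif1a transcript averaged 981 CPM in Tfh-like and 837 CPM in Treg-like cells, and 81.8 CPM in GC B-like, 84.5 CPM in mature non-GC B-like and 150 CPM in myeloid-like cells. CD8 T-like cells averaged 60.2 CPM, but the natural killer cell markers Ncr1 and Gzma were also among the leading genes of their cluster. The level in CD8 T cells alone is therefore not given by this value. The ratio of GC B-like to Tfh-like cells was 0.0793 to 0.0908 for Hif1a in the 5 mice, 0.671 to 0.942 for the summed HIF targets and 0.35 to 0.4 for those other than Mif. Among single targets Egln3, a HIF hydroxylase that HIF induces, averaged 1.17 CPM in GC B-like and 97.8 CPM in Tfh-like cells, Ddit4 29.2 and 348 CPM and P4ha1 14.6 and 93.5 CPM in the same order.

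**Figure D1:**
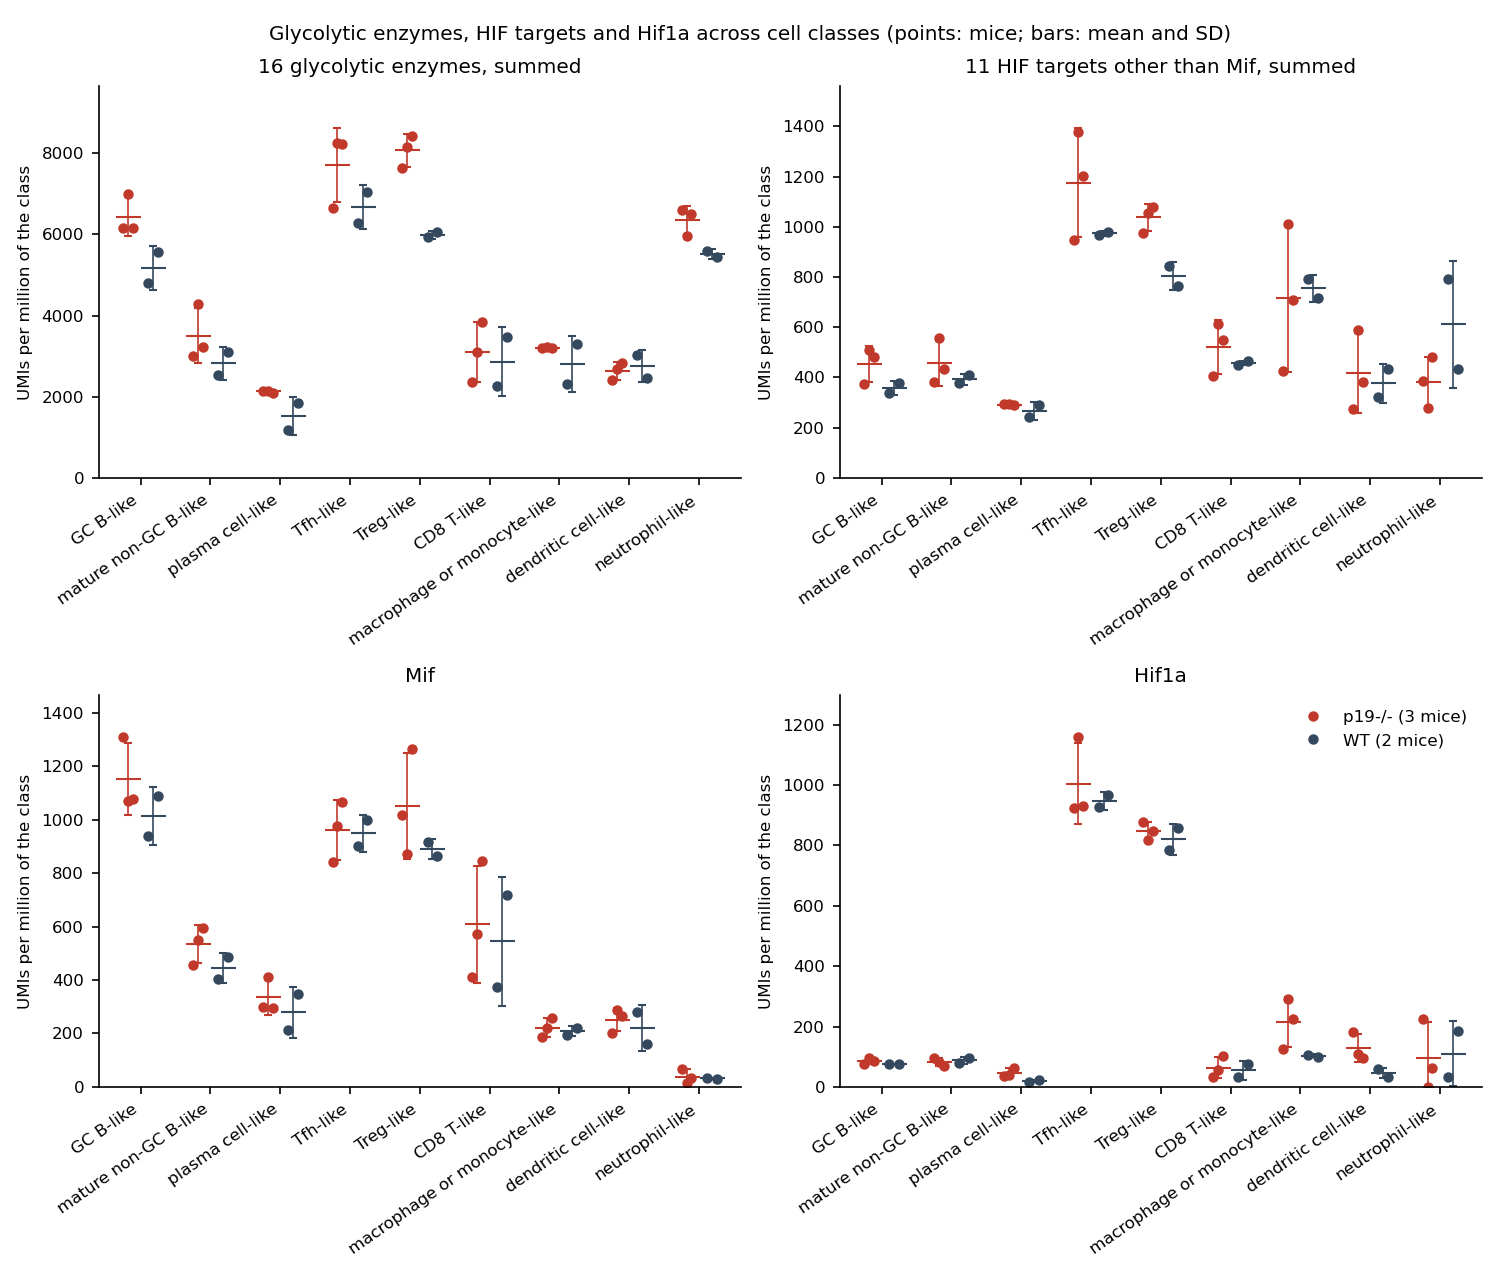
Summed CPM of the 16 glycolytic enzymes, summed CPM of the 11 HIF targets other than Mif, and CPM of Mif and of Hif1a (vertical axes, UMIs per 1000000 of the class) in 9 cell classes; points are mice, p19-/- left of WT, and bars are means with SD. Enzymes and Mif were both high in GC B-like, Tfh-like and Treg-like cells, whereas the other HIF targets averaged 416 CPM in GC B-like and 1095 CPM in Tfh-like cells, and Hif1a 81.8 and 981 CPM. In neutrophil-like cells some enzymes were also high (Pkm at 1313 CPM) and others lower (Tpi1 at 157.2 CPM), while Mif averaged 35.7 CPM.

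The class of highest mean CPM among 9 named classes was Tfh-like for 11 of the genes, neutrophil-like for 11, Treg-like for 6, GC B-like for 4, CD8 T-like for 2 and dendritic-like for 1. For 12 of the 35 that class exceeded the second highest in only 3 or fewer of the 5 mice (1 for Bnip3, 2 for Tpi1, Slc2a1, Egln1, Vegfa, Ankrd37 and Higd1a, and 3 for Hk2, Pfkm, Pgk1, Pkm and Ldha), so their order is not settled. The 4 whose mean peaked in GC B-like cells were Gapdh (glyceraldehyde-3-phosphate dehydrogenase, 992 CPM), Ldha (the muscle-type lactate dehydrogenase subunit, 1027 CPM, with Treg-like cells at 990.5), Pgam1 (phosphoglycerate mutase, 455 CPM) and Mif (1098 CPM). Isoforms differed between lymphocyte classes. Ldhb, the heart-type lactate dehydrogenase subunit, averaged 0.0631 CPM in GC B-like cells, against 54.8 CPM in Tfh-like and 100.3 CPM in Treg-like cells. The glucose transporter Slc2a3 averaged 1.60 CPM in GC B-like, 5.35 CPM in Tfh-like and 28.2 CPM in Treg-like cells. Pfkfb3, which makes the activator of phosphofructokinase, was highest in dendritic-like cells at 69.3 CPM and lowest in GC B-like cells at 5.40 CPM. The 53 neutrophil-like cells had Slc2a3 at 157 CPM and the lactate exporter Slc16a3 at 229 CPM, levels that rest on few cells per mouse. The muscle phosphofructokinase Pfkm and the angiogenic factor Vegfa were too low for a genotype test in any of the 5 classes.

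GC B-like cells carried more of most glycolytic transcripts than mature non-GC B-like cells of the same mice. With mouse as a block, edgeR's quasi-likelihood test called 22 of the 29 genes tested at an adjusted p under 0.05, 15 higher and 7 lower, where 51.1% of all 9074 genes tested were called (25.5% higher and 25.6% lower). Among the glycolytic enzymes 10 of 14 rose and 3 fell, with a median log2 fold change of 0.66 against -0.01 over all genes. Ldha had 1032, 1145 and 1077 CPM in GC B-like cells of p19-/- mice and 831.5 and 1050 CPM in those of WT mice, against 347.6, 538.8 and 426.4 CPM and 327.9 and 430.7 CPM in mature non-GC B-like cells of the same mice. Every mouse was higher in GC B-like cells, and the log2 fold change was 1.16 ± 0.07 (SE; adjusted p = 2.5e-07 by edgeR). Tpi1, triosephosphate isomerase, rose by 1.44 ± 0.09 on the log2 scale (adjusted p = 3.4e-07 by edgeR), and the platelet-type phosphofructokinase Pfkp by 1.41 ± 0.12.

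Transporters and HIF targets were called in both directions. Slc16a3, which exports lactate, had 10.7, 27.7 and 21.4 CPM in GC B-like cells of p19-/- mice and 5.77 and 10.4 CPM in those of WT mice, against 4.42, 3.20 and 1.31 CPM and 0 and 1.67 CPM in mature non-GC B-like cells. Its log2 fold change was 2.84 ± 0.40 (adjusted p = 0.000126 by edgeR), and the mitophagy receptor Bnip3 rose by 2.57 ± 0.23. Slc16a1, a lactate and pyruvate transporter, rose by 1.47 ± 0.35. In the other direction Ddit4, an inhibitor of mTOR complex signalling that HIF and stress induce, had a log2 fold change of -2.47 ± 0.15 (adjusted p = 2.7e-07 by edgeR), Pfkfb3 of -1.24 ± 0.29, Aldoc, an aldolase, of -1.01 ± 0.31, hexokinase Hk1 of -0.89 ± 0.18 and the glucose transporter Slc2a1 of -0.79 ± 0.22. The call of Aldoc was lost without p19-/- 2 (adjusted p = 0.059 by edgeR) and that of Slc2a1 without WT 2 (adjusted p = 0.0539 by edgeR). Of the 10 HIF targets tested 5 were called, 3 higher and 2 lower, a share near the 51.1% of all genes, with a median of -0.01 against -0.01 over all genes. P4ha1, lower by this test (-0.55, adjusted p = 0.0391 by edgeR), lost its call without p19-/- 1, p19-/- 2, p19-/- 3 or WT 1, by DESeq2 and with no filter on low counts, with adjusted p of 0.0758 to 0.105. Hif1a itself had a log2 fold change of -0.21 (adjusted p = 0.154 by edgeR). The same contrast called all genes tested of DNA synthesis (16) and of mitosis (18) higher, along with 13 of 18 genes of oxidative phosphorylation and 6 of 19 of pyruvate dehydrogenase and the citrate cycle. The part of cell cycling in the differences of the 35 genes was not tested.

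**Figure D2:**
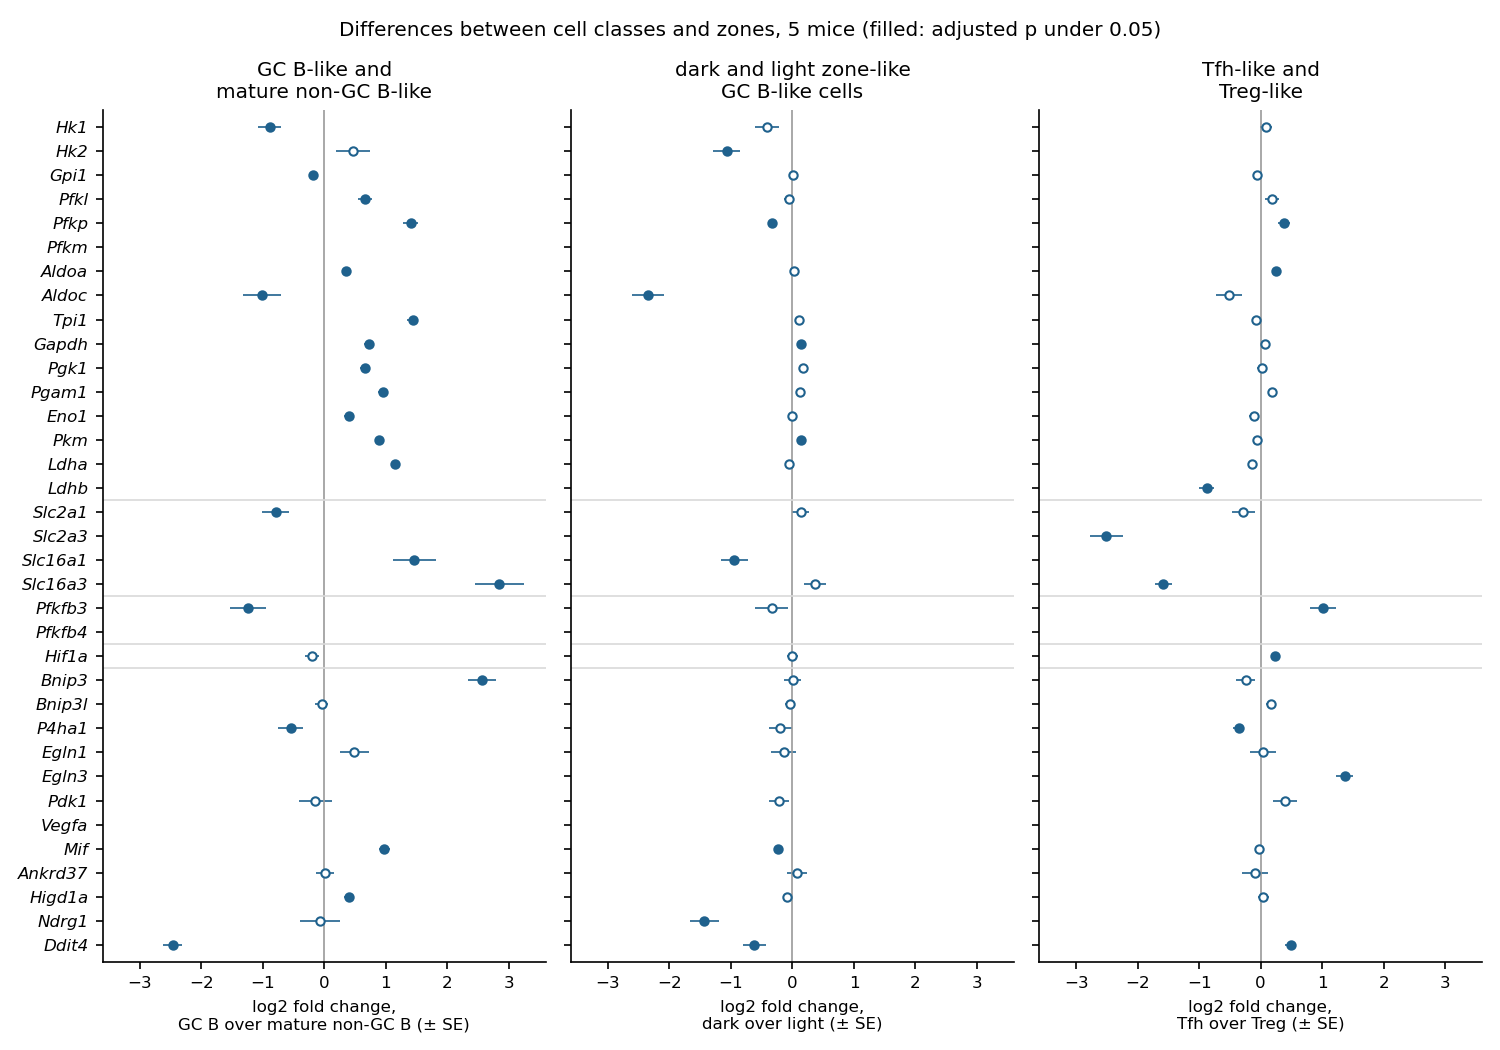
Log2 fold changes (horizontal axes, ± SE) of each gene for GC B-like over mature non-GC B-like cells, dark over light zone-like GC B-like cells and Tfh-like over Treg-like cells, over 5 mice; filled points have an adjusted p under 0.05 and a gene without a point was too low to test. The first panel holds 15 genes above and 7 below 0 among filled points, the second 2 above and 7 below, the third 6 above and 4 below.

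Within GC B-like cells the summed enzymes were close to equal between zones, and most of the single genes that differed were lower in dark zone-like cells. Cells were ranked within their mouse by how far known dark zone genes exceeded known light zone genes, none of them among the 35, and the highest and lowest 33.3% (1005 cells each) were compared; these are ranges of a score and not separate types. The glycolytic enzymes summed to 6268, 6872 and 6093 CPM in dark zone-like cells of p19-/- mice and 4584 and 5573 CPM in those of WT mice, against 5839, 6616 and 6079 CPM and 4902 and 5498 CPM in light zone-like cells. The ratio of dark to light was 0.935 to 1.07 for the enzymes and 0.827 to 0.868 for the summed HIF targets. Without Mif the ratio of the HIF targets was 0.747 to 1.07, above 1 in p19-/- 1 and below 1 in the other 4 mice. The edgeR test called 9 of 29 genes, 2 higher and 7 lower in dark zone-like cells, where 32.8% of all genes tested were called (16.6% higher and 16.1% lower).

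The genes lower in dark zone-like cells included hexokinase Hk2, which commits glucose to the cell, and Slc16a1. Hk2 had 8.11, 6.37 and 4.88 CPM in dark zone-like cells of p19-/- mice and 3.79 and 3.89 CPM in those of WT mice, against 11.3, 13.1 and 14.3 CPM and 5.71 and 10.5 CPM in light zone-like cells. Each mouse was lower in its dark zone-like cells, and the log2 fold change was -1.07 ± 0.22 (adjusted p = 0.0029 by edgeR). Slc16a1 had 4.43, 4.95 and 7.09 CPM in dark zone-like cells of p19-/- mice and 6.16 and 3.89 CPM in those of WT mice, against 13.2, 13.1 and 12.01 CPM and 8.76 and 11.04 CPM in light zone-like cells. Its log2 fold change was -0.95 ± 0.22, again with each mouse lower in dark zone-like cells. Ndrg1, a stress-responsive HIF target, had a log2 fold change of -1.44 ± 0.24, Aldoc of -2.35 ± 0.26, Ddit4 of -0.62 ± 0.19 and Pfkp of -0.33 ± 0.08. Mif, at a far higher level, had 1154, 943 and 1008 CPM in dark zone-like cells of p19-/- mice and 849 and 991 CPM in those of WT mice, against 1505, 1117 and 1209 CPM and 978 and 1188 CPM in light zone-like cells. Its log2 fold change was -0.23 ± 0.04 (adjusted p = 0.0011 by edgeR), passing the test in every alternative run, but its size ranged from -0.12 with a mitochondrial limit of 20% to -1.05 with mitotic genes out of the zone score.

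The genes that were higher in dark zone-like cells, Gapdh (0.14 ± 0.05) and the pyruvate kinase Pkm (0.13 ± 0.04), turned to log2 fold changes of -0.03 and -0.19 when the 6 mitotic genes were left out of the score. Ndrg1, Ddit4 and Pfkp then kept their direction at -0.25, -0.34 and -0.17 without passing the threshold. Without p19-/- 3, 5 genes were called (Slc16a1, Hk2, Mif, Pfkp and Ndrg1), all lower. Ddit4 also lost its call without WT 1 (-0.40) or WT 2, as did Gapdh and Pkm, and Gapdh lost it without p19-/- 2. With the score as used, 12 of 12 G2 and M phase genes tested were higher in dark zone-like cells, Myc had a log2 fold change of -2.38, and dark zone-like cells held medians of 10484 to 18655 UMIs per cell, against 6008 to 11136.5 in light zone-like cells. The part of these in the zone differences was not tested. Among other genes of the HIF pathway, 3 of 14 were higher and 2 lower in dark zone-like cells, the 2 being the transcriptional repressor Bhlhe40 (-3.11) and the oxidase Ero1l (-0.85). Of the genes of pyruvate dehydrogenase and the citrate cycle 9 of 19 were higher and 0 lower, and of those of oxidative phosphorylation 11 of 18 were higher and 1 lower. In edgeR's test of whether the zone difference varied with genotype 0 of 29 genes were called (1 at an unadjusted p under 0.05, Ddit4), where 0.0321% of all genes were (3.56% at an unadjusted p under 0.05).

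Of the clusters within GC B-like cells, the one led by Myc and Cdc6 is set here beside those led by histone genes and by Ccnb1, a cyclin of mitosis. The enzymes summed to 6470 ± 473 CPM in the Myc and Cdc6 cluster, 6293 ± 959 in the histone cluster and 5813 ± 762 CPM in the Ccnb1 cluster (mean ± SD, 5 mice). The HIF targets other than Mif summed to 440.5 ± 49.4 CPM in the Myc and Cdc6 cluster, 412 ± 69.4 in the histone cluster and 359 ± 57.6 CPM in the Ccnb1 cluster. The values of these clusters overlapped between mice for both sums. Mif had 1648, 1435 and 1553 CPM in the Myc and Cdc6 cluster of p19-/- mice and 1269 and 1452 CPM in that of WT mice, against 1319, 1161 and 1064 CPM and 1024 and 1197 CPM in the Ccnb1 cluster. It was higher in the Myc and Cdc6 cluster than in the Ccnb1 cluster of the same mouse in all 5 mice. Ldha had 1215, 1142 and 1310 CPM in the Myc and Cdc6 cluster of p19-/- mice and 1119 and 1281 CPM in that of WT mice, against 1061, 1229 and 1029 CPM and 839.7 and 1045 CPM in the Ccnb1 cluster, so that p19-/- 2 was lower in the Myc and Cdc6 cluster and the other 4 mice were higher. Hif1a was 82.9 ± 11.9 CPM in the Myc and Cdc6 cluster and 80.2 ± 5.81 CPM in the Ccnb1 cluster, a difference smaller than the spread between mice. The share of GC B-like cells in the Myc and Cdc6 cluster was 12.6, 12.6 and 10.1% in p19-/- mice and 10.8 and 12.3% in WT mice. These values have no test, since the clusters were defined on the same cells.

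**Figure D3:**
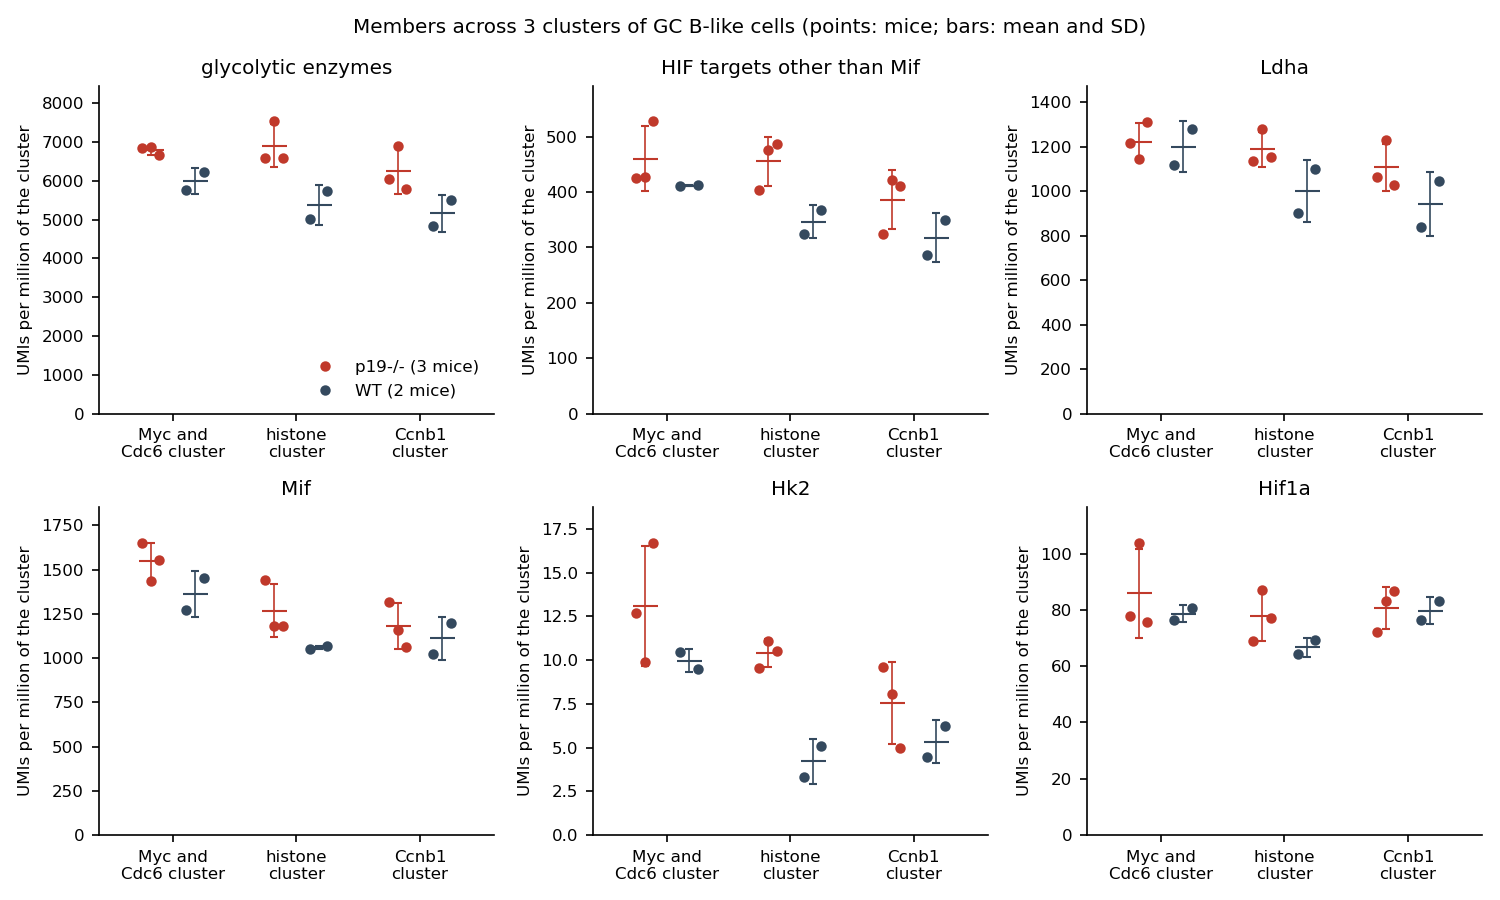
CPM (vertical axes, UMIs per 1000000 of the cluster) of the summed enzymes, the summed HIF targets other than Mif, Ldha, Mif, Hk2 and Hif1a in 3 clusters of GC B-like cells; points are mice, p19-/- left of WT, and bars are means with SD. Mif was highest in the Myc and Cdc6 cluster in every mouse, at 1472 CPM on average, while Hif1a overlapped between the clusters.

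Tfh-like and Treg-like cells differed in genes of every role. The ratio of their summed enzymes was 0.871 to 1.16, above 1 in some mice and below it in others, while the ratio of the summed transporters was 0.284 to 0.488. With mouse as a block, 10 of 29 genes were called by edgeR, 6 higher and 4 lower in Tfh-like cells, where 19.7% of all genes tested were called (9.45% higher and 10.3% lower). The 10 were 2 transporters (Slc2a3 and Slc16a3), Pfkfb3, 3 glycolytic enzymes (Ldhb, Pfkp and Aldoa), 3 HIF targets (Egln3, Ddit4 and P4ha1) and Hif1a. Slc2a3 had 4.81, 11.7 and 3.21 CPM in Tfh-like cells of p19-/- mice and 4.24 and 2.81 CPM in those of WT mice, against 29.0, 34.2 and 30.5 CPM and 20.3 and 27.0 CPM in Treg-like cells. Slc16a3 had 19.8, 40.4 and 43.6 CPM in Tfh-like cells of p19-/- mice and 30.3 and 41.2 CPM in those of WT mice, against 91.4, 116 and 147 CPM and 96.6 and 85.4 CPM in Treg-like cells. Neither gene overlapped between the classes, with log2 fold changes of -2.51 ± 0.27 for Slc2a3 (adjusted p = 6.9e-07 by edgeR) and -1.58 ± 0.14 for Slc16a3 (adjusted p = 2.5e-08 by edgeR). Ldhb was also lower in Tfh-like cells (-0.88 ± 0.13), as was P4ha1 (-0.36 ± 0.09), which DESeq2 did not call.

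Higher in Tfh-like cells was Egln3, with 105.8, 113 and 87.9 CPM in Tfh-like cells of p19-/- mice and 93.3 and 89.0 CPM in those of WT mice, against 42.4, 25.1 and 33.0 CPM and 40.7 and 42.7 CPM in Treg-like cells. Its log2 fold change was 1.37 ± 0.13 (adjusted p = 1.9e-07 by edgeR). Pfkfb3 rose by 1.02 ± 0.21, Ddit4 by 0.49 ± 0.09, Pfkp by 0.38 ± 0.10, Aldoa by 0.25 ± 0.06 and Hif1a by 0.23 ± 0.06, of which Hif1a lost its call without p19-/- 2 (0.17). Among other genes of the HIF pathway, 3 of 18 were higher in Tfh-like cells, namely Stc2 (1.72), Egln2 (0.85) and Cited2 (0.66), and 2 were lower. Of other glycolysis genes Eno3, an enolase, was lower (-2.22), and Myc had a log2 fold change of -1.63.

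Between genotypes, most of the genes were somewhat higher in p19-/- mice in each class, and few passed the test over all genes. In GC B-like cells 28 of 32 genes tested had positive log2 fold changes of p19-/- over WT, in mature non-GC B-like cells 19 of 23, in Tfh-like cells 24 of 29, in Treg-like cells 25 of 29 and in myeloid-like cells 18 of 20. Over all genes tested, 50.3, 49.7, 50.3, 49.6 and 49.8% were positive in the same order. The medians were 0.28, 0.24, 0.16, 0.41 and 0.19 in the same order, where the median over all genes tested in GC B-like cells was 0.00. Leaving out 1 mouse moved the median by over 1.5 times in mature non-GC B-like cells (0.10 without p19-/- 2 and 0.14 without WT 1), Tfh-like cells (0.10 without p19-/- 3 or WT 1) and myeloid-like cells (0.12 without WT 1 and 0.30 without WT 2), and left every median positive. The classes come from the same 5 mice, so these counts are not independent. The edgeR test with Benjamini-Hochberg adjustment over all genes called 0 of 32 genes in GC B-like cells, where 0.019% of all genes were called (0.00952% in each direction), and 0 of 23 in mature non-GC B-like cells, where 0% were. It called 2 of 29 in Tfh-like cells, where 0.522% were called (0.283% higher and 0.239% lower), 3 of 29 in Treg-like cells, where 0.713% were called (0.471% higher and 0.242% lower), and 0 of 20 in myeloid-like cells, where 0.194% were called (0.0353% higher and 0.159% lower). At an unadjusted p under 0.05 there were 11 genes in GC B-like cells (8.44% of all genes), 4 in mature non-GC B-like (4.34%), 6 in Tfh-like (9.71%), 14 in Treg-like (7.55%) and 3 in myeloid-like cells (7.56%). DESeq2 called 3 in GC B-like (0.514% of all genes with an adjusted p), 0 in mature non-GC B-like (0.108%), 3 in Tfh-like (0.489%), 3 in Treg-like (0.428%) and 0 in myeloid-like cells (0.194%).

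**Figure D4:**
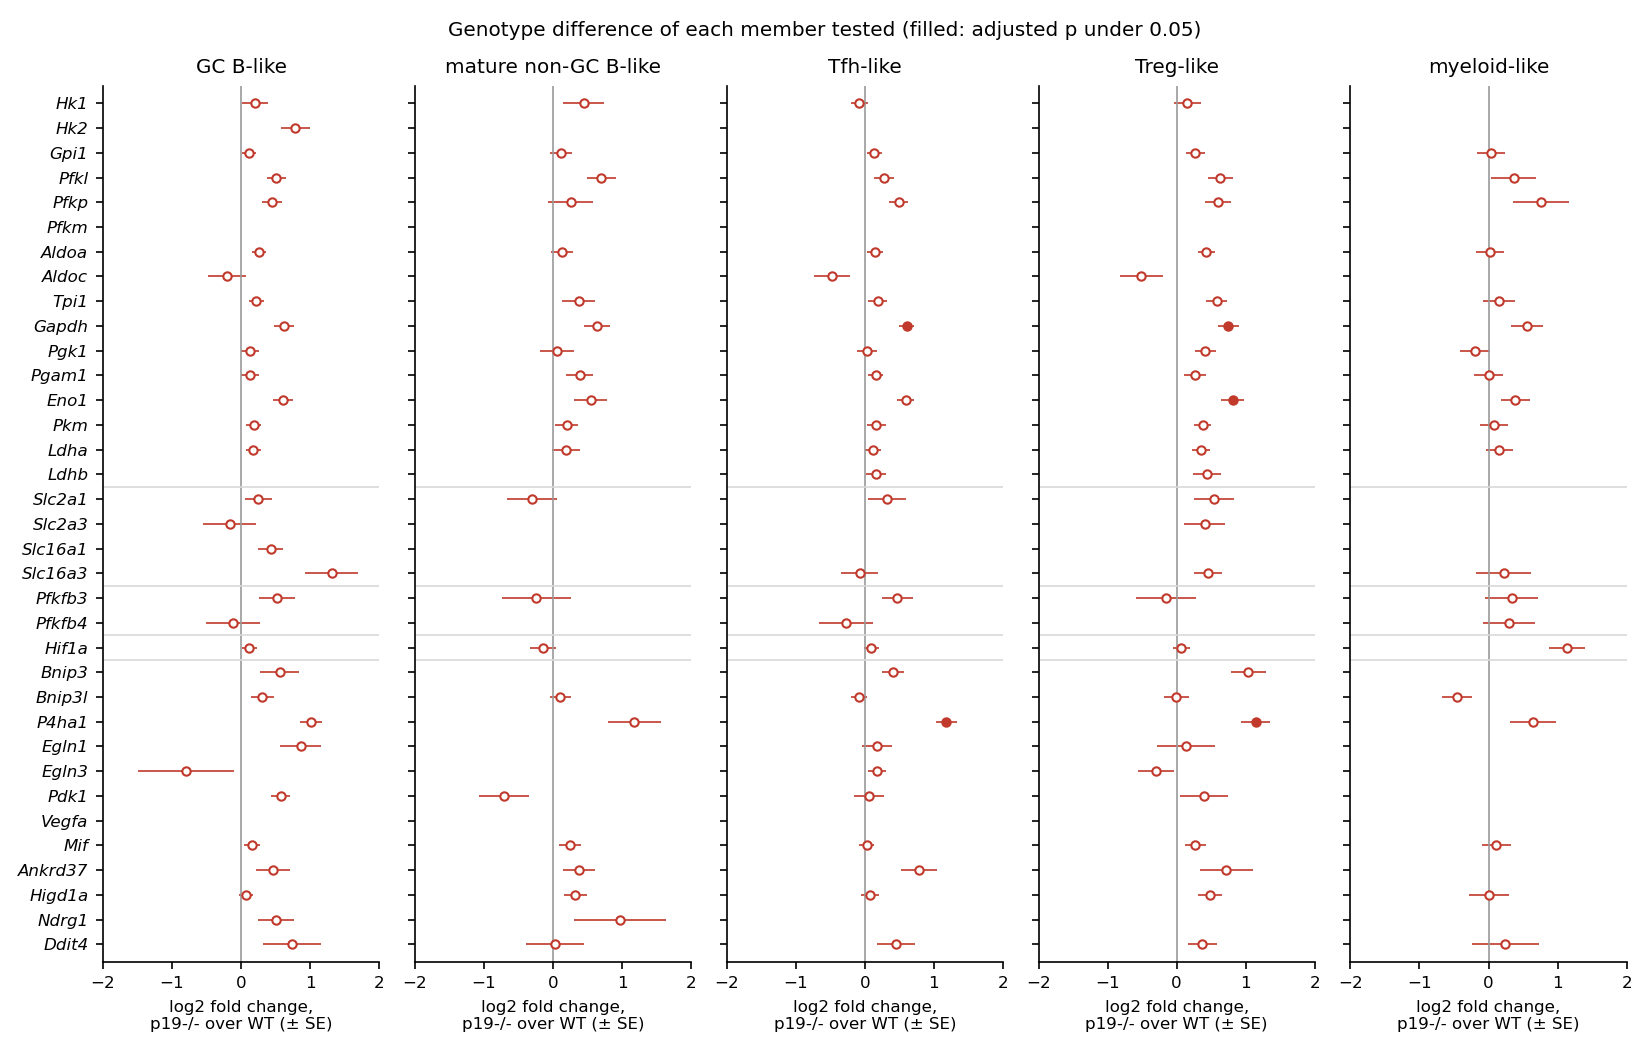
Log2 fold changes of p19-/- over WT (horizontal axes, ± SE) for each gene in 5 cell classes; filled points have an adjusted p under 0.05 over all genes and a gene without a point was too low to test. Most points lie above 0 in each class, and the filled ones are Gapdh and P4ha1 in Tfh-like cells and Gapdh, Eno1 and P4ha1 in Treg-like cells.

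P4ha1, which encodes the catalytic subunit of a collagen prolyl hydroxylase, had the largest fold changes among these calls. It had 129, 103 and 128 CPM in Tfh-like cells of p19-/- mice, against 48.5 and 59.0 CPM in those of WT mice, with no overlap. The log2 fold change was 1.18 ± 0.15 (adjusted p = 0.0032 by edgeR), and without WT 1 it was 1.05 with an adjusted p of 0.0525. In Treg-like cells it had 174, 116 and 168 CPM in p19-/- mice, against 64.8 and 77.5 CPM in WT mice, a log2 fold change of 1.14 ± 0.20 (adjusted p = 0.0083 by edgeR). That call was lost without WT 1 (1.04, adjusted p = 0.277), without WT 2 (1.25, adjusted p = 0.121) and without p19-/- 3 (1.04, adjusted p = 0.087). Nor did the genotypes overlap in GC B-like cells, with 18.6, 16.6 and 19.7 CPM in p19-/- mice against 8.47 and 9.50 CPM in WT mice (log2 fold change 1.01 ± 0.16, adjusted p = 0.122 by edgeR), or in mature non-GC B-like cells, with 23.6, 27.2 and 24.9 CPM in p19-/- mice against 15.8 and 6.69 CPM in WT mice. They did overlap in myeloid-like cells, with 58.4, 93.8 and 50.8 CPM in p19-/- mice against 51.4 and 35.4 CPM in WT mice. P4ha1 lies on chromosome 10 (59323197 to 59373304, GRCm38.p6), as does Il23a (128296140 to 128298084). Of the 35 genes, 5 lie on that chromosome (Hk1, Pfkl, P4ha1, Mif and Ddit4), and the others of them were not called by genotype in any class. DNA flanking the mutated Il23a and the mutation itself cannot be told apart here.

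Gapdh, the enzyme that makes glycolytic NADH, had positive log2 fold changes in all 5 classes, of which 2 passed the test. It had 936, 1039 and 849 CPM in Tfh-like cells of p19-/- mice, against 662 and 588 CPM in those of WT mice. It had 1037, 1007 and 786 CPM in Treg-like cells of p19-/- mice, against 623 and 510 CPM in those of WT mice. The genotypes did not overlap in either class, and the log2 fold changes were 0.60 ± 0.11 in Tfh-like cells (adjusted p = 0.036 by edgeR) and 0.75 ± 0.15 in Treg-like cells (adjusted p = 0.019 by edgeR). The Tfh call was lost when any mouse but p19-/- 3 was left out, with adjusted p of 0.0607 to 0.381, and the Treg call without p19-/- 1 (0.104), WT 1 (0.178) or WT 2 (0.56). Gapdh had 1352, 1219 and 914 CPM in GC B-like cells of p19-/- mice, against 742 and 731 CPM in those of WT mice, a log2 fold change of 0.63 ± 0.15 with an adjusted p of 0.372 by edgeR. Mature non-GC B-like cells had 605, 768 and 506 CPM in p19-/- mice, against 349 and 443 CPM in WT mice, and myeloid-like cells had 545, 489 and 335 CPM, against 343 and 305 CPM. Only in myeloid-like cells did the genotypes overlap.

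Eno1, the main enolase, had 384, 497 and 383 CPM in Treg-like cells of p19-/- mice, against 254 and 230 CPM in those of WT mice, a log2 fold change of 0.81 ± 0.16 (adjusted p = 0.019 by edgeR). The call was lost without WT 1 (adjusted p = 0.252), without WT 2 (0.462) and without p19-/- 3 (0.0597). In Tfh-like cells it had 328, 420 and 351 CPM in p19-/- mice, against 223 and 264 CPM in WT mice, a log2 fold change of 0.59 ± 0.12 with an adjusted p of 0.0686 by edgeR. Its values in GC B-like cells were 312, 414 and 294 CPM in p19-/- mice, against 205 and 230 CPM in WT mice, again without overlap, and the adjusted p was 0.372. Eno1b, a near-identical copy with which Eno1 may share reads, had 58.0, 88.9 and 58.4 CPM in Treg-like cells of p19-/- mice, against 38.1 and 58.4 CPM in those of WT mice. The values of Eno1 are uncertain by an amount that these counts do not give.

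**Figure D5:**
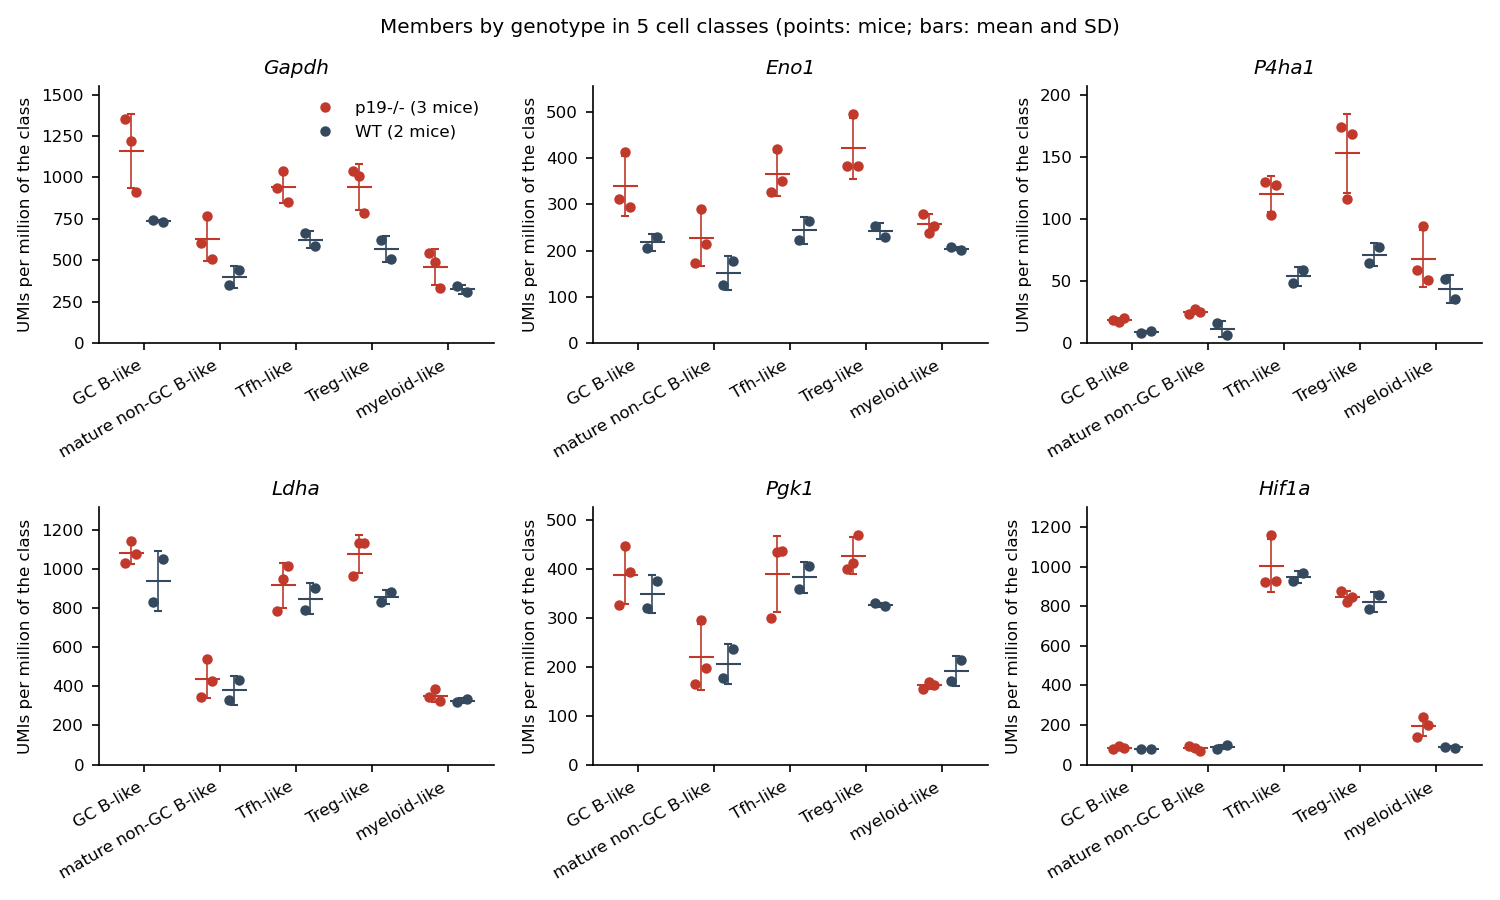
CPM (vertical axes, UMIs per 1000000 of the class) of Gapdh, Eno1, P4ha1, Ldha, Pgk1 and Hif1a in 5 cell classes; points are mice, p19-/- left of WT, and bars are means with SD. For P4ha1 the 3 p19-/- mice lay at 103 to 129 CPM in Tfh-like cells and the WT mice at 48.5 and 59.0, whereas the genotypes overlapped for Hif1a in these cells.

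The glycolytic enzymes had their highest median difference in Treg-like cells, but differences between classes were not tested. There they summed to 7638, 8155 and 8435 CPM in p19-/- mice, against 5925 and 6060 CPM in WT mice (8076 ± 404 and 5993 ± 95.8, mean ± SD), without overlap. Of 14 enzymes tested there 13 had positive log2 fold changes, with a median of 0.42, 10 an unadjusted p under 0.05 and 2 an adjusted p under 0.05. Among the others, Tpi1 had a log2 fold change of 0.58 (adjusted p = 0.109 by edgeR), Pgk1 of 0.42, Pkm of 0.38 and Ldha of 0.35. In GC B-like cells the enzymes summed to 6151, 6998 and 6160 CPM in p19-/- mice, against 4797 and 5567 CPM in WT mice, and 13 of 14 were positive with a median of 0.21. In Tfh-like cells the sums overlapped, with 6651, 8243 and 8229 CPM in p19-/- mice against 6293 and 7052 CPM in WT mice, and 12 of 14 were positive with a median of 0.16. In mature non-GC B-like cells 12 of 12 were positive with a median of 0.31, and the sums overlapped, with 3011, 4275 and 3232 CPM in p19-/- mice against 2540 and 3110 CPM in WT mice. Myeloid-like cells also overlapped, with 2982, 3061 and 3113 CPM in p19-/- mice against 2549 and 3095 CPM in WT mice.

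The abundant enzymes Ldha and Pkm and the HIF target Mif had smaller fold changes. In GC B-like cells Ldha had a log2 fold change of 0.18 ± 0.11, with 1032, 1145 and 1077 CPM in p19-/- mice against 831.5 and 1050 CPM in WT mice. Pkm had one of 0.18 ± 0.11, with 822, 972 and 867 CPM in p19-/- mice against 682 and 850 CPM in WT mice. WT 2 lay among the p19-/- mice for both genes, while WT 1 was lowest. For Ldha the fold change without WT 1 was 0.03 and without WT 2 0.35, and for Pkm 0.04 and 0.34. Mif had 1310, 1072 and 1079 CPM in p19-/- mice against 938 and 1090 CPM in WT mice, with overlap, and a log2 fold change of 0.16 ± 0.11, which was 0.06 without WT 1 or p19-/- 1 and 0.26 without WT 2. Among the 18 genes tested in all 5 classes, 14 were positive in all 5. The classes come from the same mice, and the share over all genes is not given here. Aldoc was negative in all 3 classes in which it was tested (-0.51 to -0.20).

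The HIF targets were also mostly positive in each class. They summed to 1684, 1581 and 1561 CPM in GC B-like cells of p19-/- mice, against 1276 and 1466 CPM in those of WT mice, and to 1996, 1926 and 2345 CPM in Treg-like cells of p19-/- mice, against 1759 and 1628 CPM in those of WT mice, both without overlap. Without Mif the sums in GC B-like cells overlapped, with 374, 509 and 481.5 CPM in p19-/- mice against 338 and 376 CPM in WT mice, and those in Treg-like cells did not, with 977, 1055 and 1079 CPM in p19-/- mice against 842 and 765 CPM in WT mice. In Tfh-like cells all 12 overlapped at 1787, 2357 and 2268 CPM in p19-/- mice against 1869 and 1979 CPM in WT mice, and in myeloid-like cells at 576.5, 1130 and 898.8 CPM in p19-/- mice against 862 and 856 CPM in WT mice. In GC B-like cells 10 of 11 targets tested were positive, with a median of 0.50, in mature non-GC B-like cells 7 of 8 with 0.29, in Tfh-like cells 9 of 10 with 0.18, in Treg-like cells 8 of 10 with 0.38 and in myeloid-like cells 4 of 5 with 0.12. In Treg-like cells Bnip3 had 58.0, 47.9 and 65.1 CPM in p19-/- mice, against 22.9 and 34.8 CPM in WT mice, a log2 fold change of 1.04 ± 0.26 with an adjusted p of 0.0904 by edgeR. Pdk1, the kinase that inhibits pyruvate dehydrogenase, in GC B-like cells had 15.95, 16.8 and 17.0 CPM in p19-/- mice, against 10.7 and 11.3 CPM in WT mice, a log2 fold change of 0.57 ± 0.14 with an adjusted p of 0.372 by edgeR. Higd1a, a mitochondrial HIF target, had 147.9, 150.4 and 167.2 CPM in GC B-like cells of p19-/- mice, against 138.4 and 152.5 CPM in those of WT mice, and the genotypes overlapped. Bnip3 and Pdk1 lay apart between the genotypes in these classes without passing the test. Pdk1 was positive in 3 of the 4 classes in which it was tested and had a log2 fold change of -0.71 in mature non-GC B-like cells. Bnip3l was positive in 2 of 5 classes, with a log2 fold change of -0.46 in myeloid-like cells. Egln3 was positive in 1 of 3, with one of -0.80 in GC B-like cells, where it averaged 1.17 CPM.

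Hif1a itself overlapped between genotypes in GC B-like, mature non-GC B-like, Tfh-like, Treg-like and CD8 T-like cells. It had 76.0, 95.3 and 84.4 CPM in GC B-like cells of p19-/- mice, against 76.7 and 76.8 CPM in those of WT mice, and 923, 1159 and 929 CPM in Tfh-like cells of p19-/- mice, against 927 and 968 CPM in those of WT mice. The log2 fold changes were 0.12 ± 0.11 and 0.09 ± 0.11, and 0.07 ± 0.12 in Treg-like cells. Hif1a did not overlap in plasma cell-like cells, with 35.9, 39.9 and 63.2 CPM in p19-/- mice against 17.6 and 21.4 CPM in WT mice. Those values rest on 6, 6 and 43 UMIs against 10 and 24. Immunoglobulin genes took 31.3, 27.9 and 30.2% of their UMIs in p19-/- mice, against 46.0 and 38.8% in WT mice. Unnamed T cells also lay apart, with 683, 730 and 664 CPM against 391 and 557 CPM. They pooled several clusters, of which a Lef1 and Igfbp4 cluster held 16, 27 and 32 of 101, 89 and 154 cells in p19-/- mice. In WT mice it held 89 and 49 of 185 and 138. So did dark zone-like GC B-like cells lie apart, with 78.9, 94.1 and 81.4 CPM against 72.5 and 69.1 CPM. None of these had a genotype test. In myeloid-like cells Hif1a had 140, 238 and 198 CPM in p19-/- mice, against 90.9 and 84.5 CPM in WT mice, without overlap, a log2 fold change of 1.14 ± 0.26 with an adjusted p of 0.113 by edgeR. The 6 T cell markers summed to 97.4, 301 and 386 CPM in these myeloid-like cells of p19-/- mice, against 142 and 2.73 CPM in WT mice, and 5 of 5 G2 and M phase genes tested were lower in p19-/- mice. Their part in the Hif1a difference was not tested.

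Of the transporters, Slc16a3 had 10.7, 27.7 and 21.4 CPM in GC B-like cells of p19-/- mice, against 5.77 and 10.4 CPM in those of WT mice, a log2 fold change of 1.31 ± 0.38 with an adjusted p of 0.475 by edgeR. In Tfh-like cells, where Slc16a3 overlapped between genotypes, the log2 fold change was -0.08 ± 0.27. The difference between these genotype effects, GC B-like minus Tfh-like, was 1.26 ± 0.25 (adjusted p = 0.0495 by edgeR), the only call among 34 genes, where 0.13% of all genes were called. The call held in 3 of 9 alternatives with an adjusted p, which reached 0.294, and was lost without p19-/- 2, p19-/- 3, WT 1 or WT 2. Slc2a1 had 19.2, 35.1 and 38.5 CPM in Tfh-like cells of p19-/- mice, against 19.99 and 28.6 CPM in those of WT mice, with overlap and a log2 fold change of 0.32 ± 0.27. Pfkfb3 had 24.7, 42.2 and 31.4 CPM in Tfh-like cells of p19-/- mice, against 24.8 and 22.0 CPM in those of WT mice (0.47 ± 0.22). Pfkfb3 in GC B-like cells had 4.64, 6.99 and 6.86 CPM in p19-/- mice, against 4.72 and 3.80 CPM in WT mice (0.52 ± 0.26). In both classes p19-/- 1 lay within the range of the WT mice.

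Genes whose p19-/- mice all lay above the WT mice numbered 12 of 32 in GC B-like cells, where 15.8% of all genes did, 7 of 23 in mature non-GC B-like cells (11.7% of all genes), 6 of 29 in Tfh-like cells (11.5%), 15 of 29 in Treg-like cells (9.82%) and 3 of 20 in myeloid-like cells (8.86%). Genes whose p19-/- mice all lay below numbered 0 (10.9% of all genes), 1 (8.44%), 0 (14.3%), 1 (12.8%) and 2 (13.7%) in the same order. Of lists of other glycolysis genes, pentose phosphate genes, other HIF pathway genes and genes of the citrate cycle and oxidative phosphorylation, 0 genes passed the edgeR or the DESeq2 test in any of the 5 classes, with 0 to 3 genes per list and class at an unadjusted p under 0.05 in edgeR. In Treg-like cells 9 of 18 oxidative phosphorylation genes were positive with a median of 0.00, and in GC B-like cells 6 of 18 with a median of -0.08. The other HIF pathway gene nearest to a call was the lysyl hydroxylase Plod1 in Tfh-like cells (log2 fold change 1.48, adjusted p = 0.0635 by edgeR).

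Heat shock and immediate early genes, which respond to cell handling as well as to activation, moved in the same direction between genotypes. Their 19 genes summed to 11900, 8971 and 10630 CPM in GC B-like cells of p19-/- mice, against 7517 and 8396 CPM in those of WT mice. In Tfh-like cells they summed to 10750, 7416 and 9709 CPM in p19-/- mice, against 4838 and 5754 CPM in WT mice, and in Treg-like cells to 12990, 8782 and 11010 CPM, against 5680 and 6509 CPM. The genotypes did not overlap in any of the 5 classes. In edgeR's test 4 of 15 were higher in Tfh-like and 7 of 15 in Treg-like cells of p19-/- mice, the small heat shock protein gene Hspb1 by 4.37 and 2.63 on the log2 scale, and none in GC B-like cells (6 of 17 at an unadjusted p under 0.05, 2 called by DESeq2). The 7 plasma cell markers summed to 182.9, 1422 and 175.1 CPM in Treg-like cells of p19-/- mice, against 166.5 and 168.6 CPM in those of WT mice, p19-/- 2 being far above the rest. The 6 erythroid markers summed to 17.4, 5.39 and 4.49 CPM in Tfh-like cells of p19-/- mice, against 53.9 and 92.7 CPM in those of WT mice, and the 2 that were tested fell. The part of heat shock genes and of these markers in the differences of Gapdh, Eno1 and P4ha1 was not tested.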

How the data were processed

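Spleen cells of 5 mice were profiled with the 5' VDJ kit of 10x Genomics. The deposited values are UMI counts per gene and cell, 1 matrix per mouse, made by the authors with Cell Ranger 3.0.2 and STAR on mm10, per the submitters' processing notes. Kept were barcodes with at most 10% mitochondrial UMIs and at least 200 genes, without the highest-scoring expected doublets (156, or 1.67%, because the caller's own threshold marked only 28). Cells were clustered (scanpy 1.11.5; Leiden, resolution 1) on 2000 variable genes without the 35 genes, immunoglobulin, T cell receptor and heat shock genes, and clusters were named from marker lists, by a rule refined after the clusters were seen. The classes may therefore differ from the authors' own. The fourth cluster of GC B-like cells is not reported here.

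Counts were summed per mouse and class and tested with edgeR 4.0.16 (quasi-likelihood, TMM scaling, its default filter on low counts, Benjamini-Hochberg adjustment over all genes tested, threshold 0.05). Zone and class contrasts within mice had mouse as a block. Alternatives were DESeq2 1.42.0, no filter, a replicate block, a mitochondrial limit of 20% and doublets kept. Others were a clustering with the 35 genes and the lists left out above kept, a zone score without mitotic genes and each mouse left out. The tests were tried on simulated data. The 35 genes and all lists were chosen with earlier results of these data known. Values are given per mouse for genes called by genotype, the 4 highest in GC B-like cells and the gene of lowest p per role in GC B-like and Tfh-like cells. The genotype values of Bnip3, Pdk1 and Higd1a and the genotype fold changes of Bnip3l, Egln3 and Aldoc are given outside this rule. Depth per library is in the description of the data; intervals at a count of 0 cover counting error only (3 counts). The receptor sequence files were not used here.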

Additional observations from a re-analysis of the deposited data

Results flagged for a closer look

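Slc16a3, the lactate exporter, was singled out because its genotype difference varied between cell classes. It had 10.7, 27.7 and 21.4 CPM in GC B-like cells of p19-/- mice, against 5.77 and 10.4 CPM in those of WT mice, and 19.8, 40.4 and 43.6 CPM in Tfh-like cells of p19-/- mice, against 30.3 and 41.2 CPM in those of WT mice. The log2 fold change of p19-/- over WT was 1.26 higher in GC B-like than in Tfh-like cells (SE 0.25, adjusted p = 0.0495 by edgeR's test of the interaction). Over 9 alternative settings with an adjusted p the difference was 1.09 to 1.49 and that p 0.000484 to 0.294; DESeq2 gave no adjusted p for it. The call was lost with the mitochondrial limit of 20%, with doublets kept, and without p19-/- 2, p19-/- 3, WT 1 or WT 2.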

How the results depend on the processing

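Counts of the 35 genes called by genotype moved with the processing as follows. In GC B-like cells, where edgeR called 0, DESeq2 called 3 (Eno1, Gapdh and P4ha1; 0.514% of all genes) and edgeR with no filter on low counts called 6 (1.4% of all genes). Without the filter the other counts were 1 in mature non-GC B-like cells (Gapdh; 1.01% of all genes), 5 in Tfh-like (1.67%), 6 in Treg-like (1.05%) and 1 in myeloid-like cells (Hif1a; 1.01%). Leaving out 1 mouse gave 0 to 2 calls in Tfh-like cells (0 without WT 1, 1 without p19-/- 1, p19-/- 2 or WT 2), 0 to 5 in Treg-like cells (5 without p19-/- 2, 1 without p19-/- 3, 0 without WT 1 or WT 2) and 5 to 10 by zone (5 without p19-/- 3). For the interaction of genotype with class, DESeq2 (which gave Slc16a3 no adjusted p), the limit of 20% and doublets kept each gave 0 calls, and leaving out 1 mouse gave 0 to 1. Leaving out 1 mouse gave 20 to 22 calls for GC B-like over mature non-GC B-like cells and 9 to 12 for Tfh-like over Treg-like cells. Shares of all genes called are not given for the runs with 1 mouse left out, here or elsewhere in the text. Whether these counts moved along with the calls over all genes was not tested. With mitotic genes out of the zone score the dark over light fold changes of Gapdh and Pkm reversed to -0.032 (adjusted p = 0.575) and -0.19 (adjusted p = 0.0131). Taking Mif, chosen after seeing the data, out of the summed HIF targets moved their median ratio of GC B-like to mature non-GC B-like cells to 0.92, against 1.63 with it. The causes were not tested. Fold changes of P4ha1 kept their sign in every alternative run, at 0.93 to 1.09 in GC B-like, 1.05 to 1.33 in Tfh-like and 1.02 to 1.29 in Treg-like cells. In 82 cases the count under an alternative stayed within 1.5 times the main one, and in 25 it did not.

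Whether replicate numbers pair the mice could not be told from the counts. Same-numbered mice had correlations of -0.0623 to 0.123 between their deviations, over only 2 shared numbers. With 2 WT mice, the deviations of WT 1 and WT 2 mirror each other, so each correlation with WT 1 is that with WT 2 with its sign changed. A fit with a replicate block called 1 gene in GC B-like (0.495% of all genes) and 1 in mature non-GC B-like cells (0.553%), namely Gapdh (0.76 in both, adjusted p = 0.0158 and 0.0404), and 1 in myeloid-like cells (1.15%), namely Hif1a (1.08, adjusted p = 0.0255). In Tfh-like cells the block also brought Eno1 under the threshold (0.63, adjusted p = 0.0055). In these fits the mouse without a same-numbered partner stands alone in its block and adds nothing to the genotype difference. The fold changes and adjusted p with the block therefore rest on the 2 shared numbers, a pairing that the counts do not settle.

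Few cells per mouse limit the neutrophil-like (7 to 14), dendritic-like (8 to 36), plasma cell-like (15 to 124) and CD8 T-like values (23 to 55) most, and of the classes tested by genotype the mature non-GC B-like (52 to 208) and myeloid-like (55 to 242) ones. Mouse p19-/- 3 was the only male, so the fits without it compared females alone, with 2 calls in Tfh-like cells (Gapdh and P4ha1) and 1 in Treg-like cells (Gapdh).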
